A study of Mus musculus with 8 samples.

Results

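Respiratory complex IV, cytochrome c oxidase, was followed at the level of its nuclear-encoded transcripts in muscle stem cells from mice in which Cox10 had been targeted for deletion. The genes described are the nuclear-encoded subunits of the complex and factors of its assembly. A separate list of haem A, copper and early assembly factors, Cox10 among them, is described after them. They were taken by gene symbol from a list of 36 genes. A row was present for 32 of them, out of 17847 genes in the deposited table. Cox6a2, Cox7b2, Cox20 and Pet117 had no row and were not analysed here. All 32 passed the filter on low values, which 17801 genes passed in all.

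Muscle stem cells, marked by Pax7, rebuild skeletal muscle after injury. RNA was measured in 4 Cox10-/- libraries and 4 wild-type libraries, numbered as replicates 1 to 4 in each genotype. Per the labels, the Cox10-/- animals carried a floxed Cox10 allele and a Cre driver active under Pax7 and dependent on tamoxifen, and the wild-type animals served as controls. Whether the wild-type animals carried the floxed allele or the Cre driver is not in the labels. Animals of both genotypes were adult C57Bl/6 mice and were given tamoxifen once, intraperitoneally, at 200 mg/kg. After 2 days, live cells were sorted that carried CD34 and lacked CD31, CD45 and Sca1, DAPI marking the dead ones. Total RNA was turned into libraries by a stranded method for small inputs. Exact ages and sexes are not in the labels, and nothing states that each library came from its own animal, so p-values measure the spread between these libraries.

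Complex IV passes electrons from cytochrome c to oxygen and pumps protons across the inner mitochondrial membrane. Its catalytic core is made of 3 proteins encoded in mitochondrial DNA (mt-Co1, mt-Co2 and mt-Co3), and the surrounding subunits are encoded in the nucleus, several of them as alternative isoforms that differ between tissues. Cox10 makes haem O, the precursor of the haem A that sits in mt-Co1, and without haem A the enzyme cannot be completed. Assembly begins around newly made mt-Co1, which is held by a group of small membrane factors until it has received its haem and copper.

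In Cox10-/- cells, 4 assembly factors fell, Cox14, Cmc2, Coa3 and Lrpprc. The subunit isoform Cox4i2 passed the test as higher, but its wild-type mean of 0.34 log2 CPM is under the 0.5 that the file requires over all libraries, so it is in the table only through its Cox10-/- values. Cox14, Cmc2 and Coa3 stood at 46.8% to 51.3% of wild-type and Lrpprc at 73.2%. None of the 12 subunits made in most tissues passed the test, and all 12 had log2 fold changes below 0, between -0.53 and -0.17. Tests were made with limma on log2 CPM (the reads of a gene scaled to a common library size) over all 17801 genes, with Benjamini-Hochberg adjustment and a threshold of 0.05. The 4 falls are 12.5% of the 32 genes, where 8.51% of all tested genes fell, and the 1 gene called higher, Cox4i2, is 3.13%, where 7.58% of all tested genes rose. The share that fell is 1.47 times that of the whole table, on 4 genes, and nothing is read from the 1 called higher. The number that fell depended on single libraries. It was 2 without Cox10-/- replicate 3, Cox10-/- replicate 4 or wild-type replicate 1, and 1 without wild-type replicate 3 or 4. It was 8 without the pair of libraries with the fewest reads (Cox10-/- replicate 4 and wild-type replicate 2). Coa5, Taco1, Ndufa4 and Cox8b then also passed. Cox8b is listed at 0 (a CPM of 1 or less) in all Cox10-/- libraries left in that fit. It is in the table only through its wild-type values, so nothing is read from its call. Of all calls, 47.1% were higher in Cox10-/- as deposited and 58.4% after each library was centred on its median, with the same 4 and 1 complex IV genes called. Log2 fold changes lay below 0 for 27 of the 32 genes (84.4%), where 55.2% of all tested genes lay below 0, and their median was -0.33, where that of all tested genes was -0.055. The genes are not independent of one another, and these shares and medians are descriptions.

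**Figure D1:**
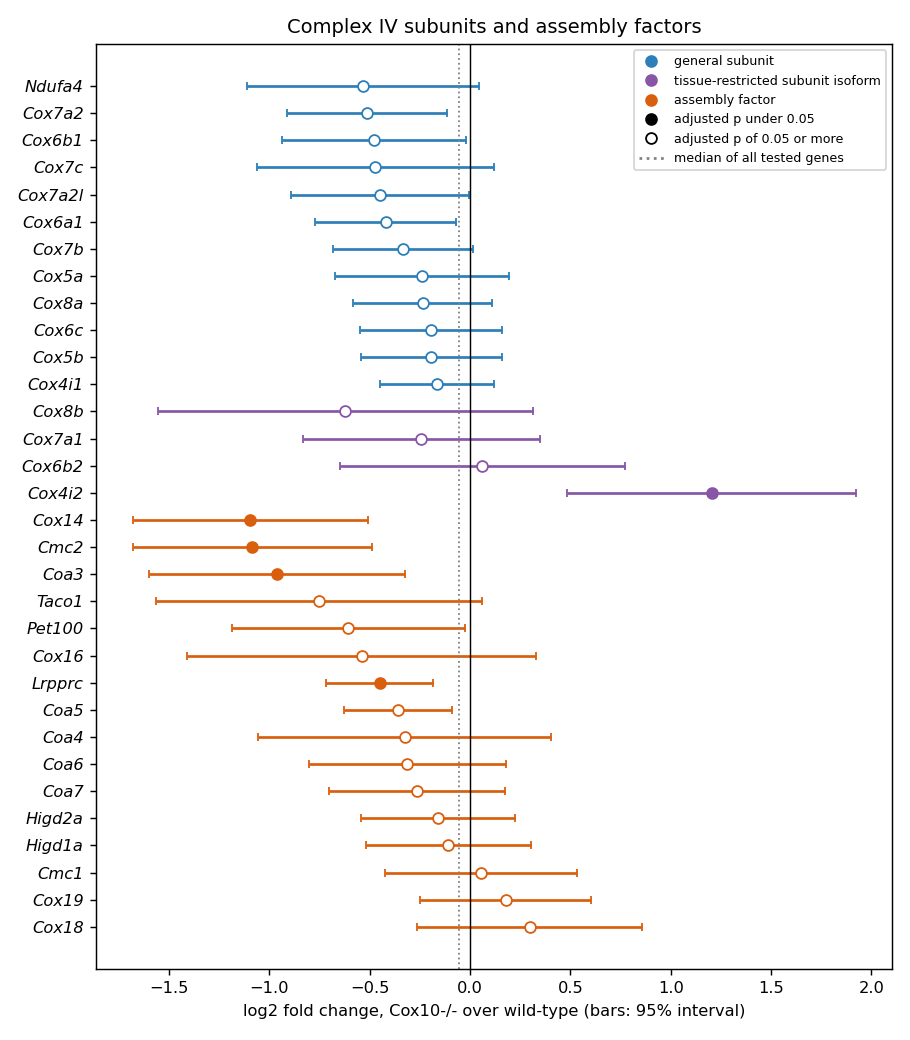
Log2 fold changes of the 32 genes, Cox10-/- over wild-type, from limma on 4 libraries per genotype; bars are 95% intervals, filled points have an adjusted p under 0.05, and the dotted line is the median of all tested genes, -0.055. All 12 general subunits lie left of 0, and Cox4i2 is the filled point to the right, at 1.21.

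Cox14 and Coa3 are small inner membrane proteins that bind newly made mt-Co1. Cox14 stood at 3.14, 3.16, 2.76 and 2.05 log2 CPM in Cox10-/- replicates 1 to 4, against 3.76, 3.98, 3.78 and 3.97 log2 CPM in wild-type replicates 1 to 4. The genotypes did not overlap, and the spread was wider in Cox10-/- (SD 0.52) than in wild-type (SD 0.12, n = 4 each). It fell by 1.10 ± 0.27 on the log2 scale (SE; 95% interval of the fold change -1.68 to -0.51; limma adjusted p = 0.0168). The recovered reads behind these values numbered 38, 39, 21 and 7 in Cox10-/-, against 48, 34, 64 and 63 in wild-type. Cox14 was the 1 gene of the 32 that stayed past the threshold whichever of the 8 libraries was left out, with an adjusted p of up to 0.045. It did not pass with the means of replicates 1 and 2 and of replicates 3 and 4 as samples (adjusted p = 0.12). Leaving out Cox10-/- replicate 4, its lowest library, gave -0.85.

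Coa3 stood at 2.85, 2.58, 2.45 and 1.82 log2 CPM in Cox10-/- replicates 1 to 4, against 3.08, 3.07, 3.74 and 3.66 log2 CPM in wild-type. Replicate 4 was again the lowest Cox10-/- library, and every Cox10-/- value lay below every wild-type value. The log2 fold change of Coa3 was -0.96 ± 0.29 (SE; limma adjusted p = 0.0434), on 6 to 31 reads in Cox10-/- libraries and 18 to 62 in wild-type. That call was lost with those means (adjusted p = 0.214) and on leaving out any of 6 libraries. The adjusted p was 0.0679 without Cox10-/- replicate 2, 0.0896 without Cox10-/- replicate 3, 0.0799 without Cox10-/- replicate 4, 0.0614 without wild-type replicate 1, 0.12 without wild-type replicate 3 and 0.112 without wild-type replicate 4. Of the 5 genes past the threshold, it was the one nearest to the threshold.

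Cmc2 belongs to the twin CX9C proteins of the space between the mitochondrial membranes, and its yeast relative is needed for complex IV. Its values were 1.48, 1.58, 1.82 and 1.82 log2 CPM in Cox10-/- replicates 1 to 4, against 2.70, 2.36, 3.03 and 2.95 log2 CPM in wild-type. All Cox10-/- values lay close together and below the lowest wild-type value. The fall was -1.09 ± 0.27 (log2, SE; limma adjusted p = 0.0191), and it did not pass without wild-type replicate 3 (adjusted p = 0.0608) or wild-type replicate 4 (0.0583). Counting error is large here, with 6 to 13 reads in Cox10-/- libraries and 11 to 38 in wild-type. Cmc1, a protein of the same family that acts with Cox14 and Coa3 in human cells, gave 0.06 ± 0.22, with an interval of -0.42 to 0.53.

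Lrpprc is a large RNA-binding protein that stabilises mitochondrial messenger RNAs, among them those of the complex IV core. It had the highest mean level of the 32 genes per library, not corrected for length. Its values were 6.33, 6.19, 6.08 and 5.85 log2 CPM in Cox10-/- replicates 1 to 4, against 6.50, 6.40, 6.75 and 6.60 log2 CPM in wild-type. The highest Cox10-/- value lay just under the lowest wild-type value, and reads numbered 98 to 347 in Cox10-/- and 181 to 501 in wild-type. The fall was -0.45 ± 0.12 (log2, SE; limma adjusted p = 0.0261). It did not pass without Cox10-/- replicate 3 (0.0719), Cox10-/- replicate 4 (0.0536), wild-type replicate 1 (0.0536), wild-type replicate 3 (0.0786) or wild-type replicate 4 (0.0603).

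**Figure D2:**
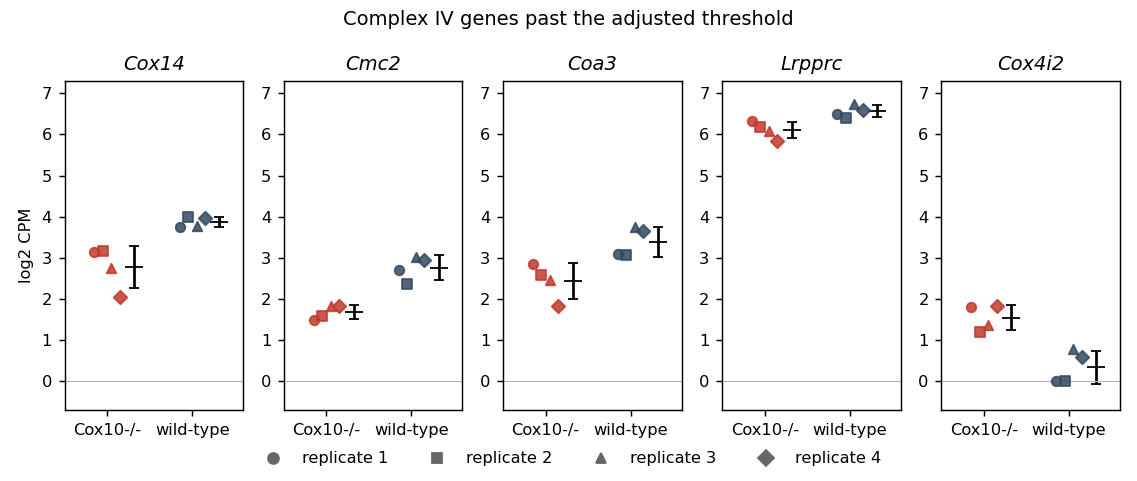
Log2 CPM of the 5 genes past the adjusted threshold in each of 4 Cox10-/- and 4 wild-type libraries; symbols give the replicate number, bars are the mean ± SD, and 0 is the lowest value the file gives, a CPM of 1 or less. The Cox10-/- libraries lie below the wild-type libraries for Cox14, Cmc2, Coa3 and Lrpprc, and above them for Cox4i2, where 2 wild-type libraries stand at 0.

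The promoters of the 4 genes that fell are shown because these genes moved in the same direction, and promoters of nuclear genes for mitochondrial proteins often hold sites for NRF1, for ETS factors such as GABPA and for YY1. Each sequence runs from 250 bases before to 50 after the transcription start in RefSeq annotation of GRCm38.p6, a later build than the mm9 of the deposited values. Capitals mark matches, on either strand, to the NRF1 motif (GCGC and TGCGC with any 1 base between them), CCGGAAG (ETS) or ATGGCGGC (YY1), which do not overlap in these sequences. They are Cox14 at chr15:99725368-99725667 on the plus strand, and Cmc2 at chr8:116921387-116921686, Coa3 at chr11:101278899-101279198 and Lrpprc at chr17:84790737-84791036 on the minus strand.
Cox14: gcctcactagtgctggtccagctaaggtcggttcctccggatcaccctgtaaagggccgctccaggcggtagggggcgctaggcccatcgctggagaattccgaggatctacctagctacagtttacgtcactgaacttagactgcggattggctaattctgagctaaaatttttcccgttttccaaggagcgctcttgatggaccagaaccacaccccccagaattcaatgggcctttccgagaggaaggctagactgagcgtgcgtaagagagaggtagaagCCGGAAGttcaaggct
Cmc2: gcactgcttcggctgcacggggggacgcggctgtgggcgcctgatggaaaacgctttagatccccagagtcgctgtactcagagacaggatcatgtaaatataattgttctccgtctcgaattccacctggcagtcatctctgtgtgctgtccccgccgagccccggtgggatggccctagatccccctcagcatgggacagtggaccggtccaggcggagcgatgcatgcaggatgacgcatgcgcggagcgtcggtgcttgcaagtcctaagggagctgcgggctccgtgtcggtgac
Coa3: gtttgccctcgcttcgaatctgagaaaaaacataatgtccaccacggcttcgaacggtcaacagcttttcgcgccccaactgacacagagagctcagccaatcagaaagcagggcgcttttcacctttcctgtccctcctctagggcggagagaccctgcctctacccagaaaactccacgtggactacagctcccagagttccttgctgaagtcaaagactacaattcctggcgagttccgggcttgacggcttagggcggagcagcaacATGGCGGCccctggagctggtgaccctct
Lrpprc: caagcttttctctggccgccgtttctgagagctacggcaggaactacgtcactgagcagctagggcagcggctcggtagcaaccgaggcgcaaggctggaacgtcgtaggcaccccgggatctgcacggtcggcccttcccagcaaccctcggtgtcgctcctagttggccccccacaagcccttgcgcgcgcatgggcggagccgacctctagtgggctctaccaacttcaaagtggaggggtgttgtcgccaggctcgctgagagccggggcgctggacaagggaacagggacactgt
The Cox14 promoter held the ETS letters and the Coa3 promoter the YY1 letters, both after the transcription start, and those of Cmc2 and Lrpprc held none of the 3 as spelled. Of the 27 genes of the group with a promoter in the table, 9 held the ETS letters in at least 1 promoter, 2 the YY1 letters and 1 the NRF1 letters. Counted as single promoters, 10 of the 28 of these genes held the ETS letters, 2 the YY1 letters and 1 the NRF1 letters. Over all 32851 single promoters, not limited to genes of the deposited values, the shares were 8.86% for ETS, 2.24% for YY1 and 4.60% for NRF1. A match is a description of the sequence and not a binding site shown here.

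The remaining 12 assembly factors did not pass the test. Coa5, a factor of early assembly, came nearest, at 5.42, 5.54, 5.47 and 5.51 log2 CPM in Cox10-/- replicates 1 to 4, against 5.97, 5.53, 5.91 and 5.97 log2 CPM in wild-type. Its Cox10-/- values were close to one another (SD 0.052, n = 4), and wild-type replicate 2 alone reached down among them. The difference was -0.36 ± 0.12 (log2, SE; limma adjusted p = 0.067), and it passed without wild-type replicate 2 (0.0129). Pet100, which in human cells acts with the mt-Co2 part of the complex, stood at 2.14, 1.58, 1.95 and 1.82 log2 CPM in Cox10-/-, against 2.34, 2.70, 2.37 and 2.51 log2 CPM in wild-type. The genotypes did not overlap, and the difference of -0.61 ± 0.27 had an adjusted p of 0.144 by limma. Taco1, a translational activator of mt-Co1, gave -0.76 ± 0.37 (adjusted p = 0.192), with wild-type values from 1.48 in replicate 2 to 3.08 in replicate 4. It passed without wild-type replicate 2 (-1.10, adjusted p = 0.0343).

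Among the other assembly factors, Cox16, which in human cells helps mt-Co2 to receive copper, gave -0.54 ± 0.40, on 3 to 14 reads per library. Coa6, a factor in the supply of copper to mt-Co2, gave -0.31 ± 0.23, Coa7 gave -0.27 ± 0.20 and Coa4 gave -0.33 ± 0.34. Higd2a and the hypoxia-inducible Higd1a gave -0.16 ± 0.18 and -0.11 ± 0.19. Cox18, which moves the tail of mt-Co2 across the inner membrane, was the highest of the assembly factors at 0.30 ± 0.26, with an interval of -0.26 to 0.86, and Cox19, linked to copper delivery, gave 0.18 ± 0.20. The sign of Higd1a turned to 0.05 without Cox10-/- replicate 4, and that of Cmc1 to -0.07 without Cox10-/- replicate 2 and -0.06 without wild-type replicate 2.

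The 12 general subunits form the shell around the catalytic core, with Ndufa4 and Cox7a2l. Ndufa4 is a late-joining subunit first assigned to complex I, and Cox7a2l is linked to supercomplexes of complexes III and IV. Both are counted among the 12. Their CPM summed to 253, 297, 285 and 296 in Cox10-/- replicates 1 to 4, against 372, 351, 329 and 346 in wild-type replicates 1 to 4. Every Cox10-/- sum lay below every wild-type sum, and the means were 283 ± 21 and 350 ± 18 CPM (SD, n = 4 each), so that Cox10-/- stood at 81.0% of wild-type. In the bulk of a sorted population, fewer cells of a type and less RNA per cell cannot be told apart. The sum over 36 complex I subunits stood at 81.4% of wild-type and that over the 32 genes described here at 80.7%.

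No general subunit passed the adjusted threshold, and 4 had an unadjusted p under 0.05 (33.3% of the 12, where 16.9% of all tested genes were lower at that p). Cox7a2 stood at 3.48, 3.81, 3.76 and 3.70 log2 CPM in Cox10-/- replicates 1 to 4, against 4.17, 4.48, 4.05 and 4.10 log2 CPM in wild-type. The genotypes did not overlap, and the difference was -0.51 ± 0.18 (SE; limma adjusted p = 0.0769). Cox6a1 stood at 4.51, 4.48, 4.14 and 4.10 log2 CPM in Cox10-/-, against 4.70, 4.57, 4.87 and 4.77 log2 CPM in wild-type, also without overlap. Its difference of -0.42 ± 0.16 had an adjusted p of 0.0966 by limma. By pairs it came to -0.14 (replicates 1 and 2) and -0.70 (replicates 3 and 4).

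Cox6b1, the subunit on the side of the complex where cytochrome c binds, stood at 3.54, 3.63, 3.27 and 3.94 log2 CPM in Cox10-/-, against 4.42, 3.90, 4.03 and 3.95 log2 CPM in wild-type. Cox10-/- replicate 4 overlapped the wild-type range, and the difference was -0.48 ± 0.21 (limma adjusted p = 0.143). Cox7a2l stood at 5.09, 6.20, 6.01 and 5.49 log2 CPM in Cox10-/-, against 6.29, 6.02, 6.06 and 6.21 log2 CPM in wild-type. Cox10-/- replicates 1 and 4 were low while replicates 2 and 3 lay near wild-type, and the difference was -0.45 ± 0.20 (limma adjusted p = 0.157). Cox5a and Cox7b also did not overlap between genotypes, with differences of -0.24 ± 0.20 and -0.34 ± 0.16. Without overlap and lower in Cox10-/- were therefore 4 of the 12 (33.3%) and 9 of all 32 genes (28.1%), where the share among all tested genes was 11.8%. Ndufa4 (-0.53 ± 0.27), Cox7c (-0.47 ± 0.27), Cox8a (-0.24 ± 0.16), Cox6c (-0.20 ± 0.16) and Cox5b (-0.19 ± 0.16) overlapped. Gene models with near-identical sequence had rows of their own for Cox5b, Cox7a2l, Cox7c and, among the assembly factors, Higd1a. Reads of these genes may have been divided, and their values are uncertain. Near copies with no row were found for Cox6c and Cox7b, and how reads matching them were counted is not given. Cox4i1 shares sequence with the overlapping Emc8, Cox5a with Gm26631, Cox16 with Gm20498, Higd1a with Gm47112 and Pet100 with Pcp2, and whether reads were counted by strand is not given in the sources used here.

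Ndufa4 stood apart in Cox10-/- replicate 4, at 3.63 log2 CPM where the other Cox10-/- libraries held 2.76 to 2.85, and its difference was -0.85 (adjusted p = 0.0291) without that library and wild-type replicate 2, which have the fewest reads.

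Cox4 is present in most tissues as Cox4i1 and, mainly in lung and in vascular cells, as Cox4i2, an isoform tied to oxygen sensing. Cox4i1 stood at 5.83, 5.84, 6.08 and 6.25 log2 CPM in Cox10-/- replicates 1 to 4, against 6.24, 6.36, 5.93 and 6.13 log2 CPM in wild-type. The ranges overlapped and the difference of -0.17 ± 0.13 had an interval of -0.45 to 0.12. Cox4i2 stood at 1.80, 1.20, 1.36 and 1.82 log2 CPM in Cox10-/-, against 0, 0, 0.78 and 0.58 log2 CPM in wild-type, where a listed 0 means a CPM of 1 or less. All Cox10-/- libraries lay above all wild-type libraries, as in 9.3% of all tested genes.

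A gene near the floor that enters the table through 1 genotype has to differ, so the difference of 1.21 ± 0.33 (log2, SE; limma adjusted p = 0.0275) is given as a description. The libraries at 0 are wild-type ones, so the fold is understated. It rests on 15, 10, 8 and 6 reads in Cox10-/- replicates 1 to 4, against at most 3 and at most 2 reads in wild-type replicates 1 and 2 and 8 and 6 reads in wild-type replicates 3 and 4. The call was lost without Cox10-/- replicate 1 (adjusted p = 0.0681), Cox10-/- replicate 3 (0.0532), Cox10-/- replicate 4 (0.0576), wild-type replicate 1 (0.0793) or wild-type replicate 2 (0.0564). It was also lost without the pair of libraries with the fewest reads (1.0, adjusted p = 0.0926) and with limma-voom on recovered reads (2.21, adjusted p = 0.107), an alternative chosen after the data were seen. The limma-voom fit entered values listed at 0 as 0 reads, so its 2.21 may be too high and is not a corrected fold. Of 15 endothelial markers 5 rose (33.3%, where 7.58% of all tested genes rose) and none fell (8.51% of all tested genes). Among the 5 was Ly6c1, at 0, 0, 0 and 0.58 log2 CPM in wild-type replicates 1 to 4, a mean of 0.145. That mean is under the lowest that the file holds over all libraries. Ly6c1 is thus in the table only through its Cox10-/- values and had to be higher. Its call is counted in the 33.3%, but nothing is read from it. The summed CPM of the 15 markers was 430 to 519 in Cox10-/- against 369 to 407 in wild-type. Of 12 mural markers with a row, 2 rose and 2 fell, 16.7% each way, where 7.58% of all tested genes rose and 8.51% fell. Myh11 rose by 1.28 and Pdgfrb by 0.91 on the log2 scale, and Cspg4 and Acta2 fell. Log2 fold changes of the mural markers lay above 0 for 6 and below 0 for 6, with a median of 0.11. Without overlap, 3 were lower (25.0%, where 11.8% of all tested genes were) and 2 higher (16.7%, where 9.3% were). The mural sums were 1177 to 1471 CPM in Cox10-/- and 851 to 1118 CPM in wild-type. The 2 markers that rose, Myh11 and Pdgfrb, were left out after their values were seen, with Cspg4 and Acta2 kept. The sums of the rest overlapped, at 570 to 706 CPM in Cox10-/- and 616 to 757 CPM in wild-type. That choice lowers Cox10-/- against wild-type in advance, so nothing is read from the overlap. No endothelial or mural marker with a row was listed at 0 in all libraries. The sort removed CD31-positive cells, and the part of vascular cells in the values of Cox4i2 was not tested.

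**Figure D3:**
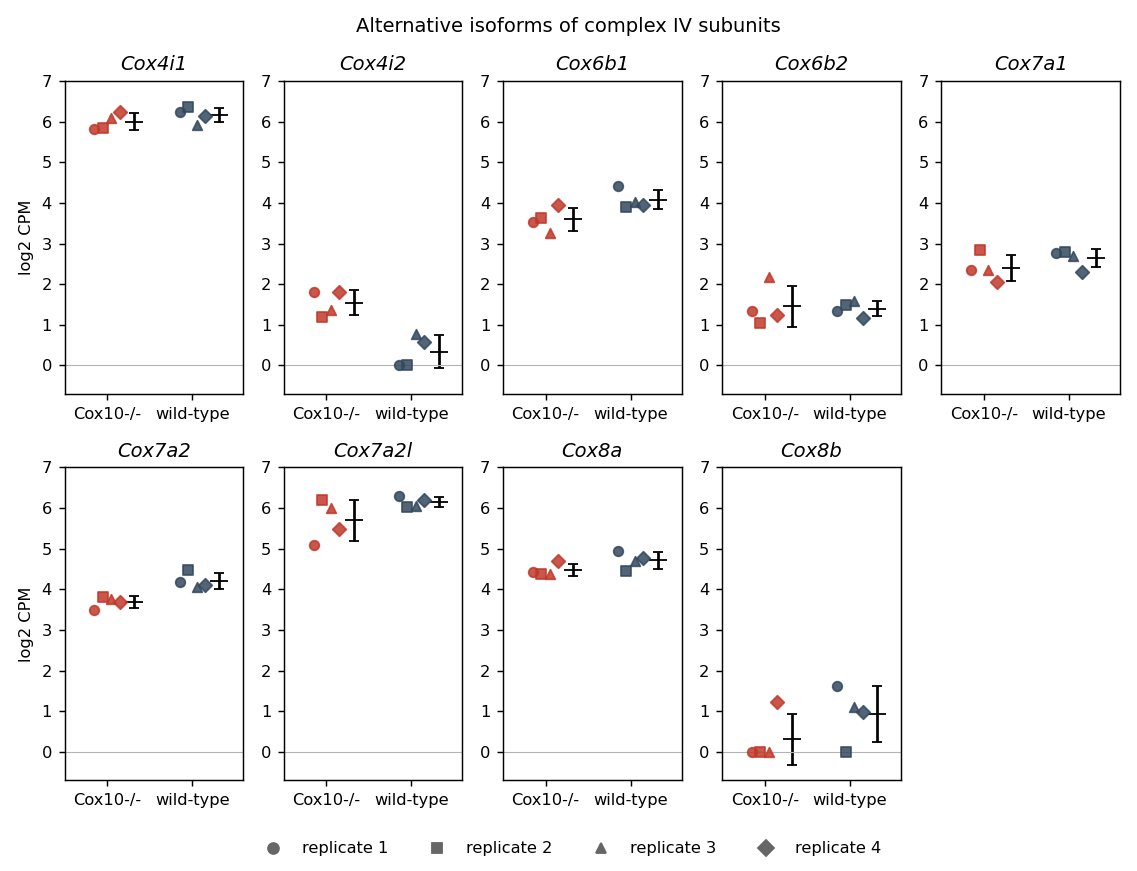
Log2 CPM of alternative isoforms of 4 complex IV subunits in each of 4 Cox10-/- and 4 wild-type libraries; symbols give the replicate number and bars the mean ± SD. Values are not corrected for length, so levels of different genes are not compared here. Among the isoforms drawn, only Cox4i2 has an adjusted p under 0.05.

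The other tissue-restricted isoforms did not pass. Cox7a1, the form of heart and skeletal muscle fibres, stood at 2.35, 2.83, 2.36 and 2.05 log2 CPM in Cox10-/-, against 2.76, 2.80, 2.69 and 2.31 log2 CPM in wild-type, a difference of -0.24 ± 0.27 with overlapping ranges. Cox6b2, a form best known from testis, stood at 1.35, 1.05, 2.17 and 1.24 log2 CPM in Cox10-/-, against 1.34, 1.48, 1.59 and 1.16 log2 CPM in wild-type. Its difference of 0.06 ± 0.33 turned to -0.18 without Cox10-/- replicate 3, the highest library. Cox8b, a form of striated muscle and brown fat, was listed at 0 in Cox10-/- replicates 1 to 3 and at 1.24 log2 CPM in replicate 4, against 1.63, 0, 1.11 and 0.99 log2 CPM in wild-type replicates 1 to 4. Its Cox10-/- mean of 0.31 log2 CPM is under the 0.5 of the file, so it is in the table only through its wild-type values. Its general partner Cox8a stood at 4.43, 4.39, 4.39 and 4.70 log2 CPM in Cox10-/-, against 4.95, 4.45, 4.69 and 4.76 log2 CPM in wild-type. Of 16 muscle fibre markers with a row, 2 rose (12.5%, where 7.58% of all tested genes rose) and 2 fell (12.5%, where 8.51% did). Log2 fold changes lay above 0 for 11 of the 16, with a median of 0.62, and their sums overlapped between genotypes, at 212 to 528 CPM in Cox10-/- and 268 to 504 CPM in wild-type.

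Levels of different genes were compared per kilobase of the principal transcript in GENCODE M21. On this scale, in log2 CPM per kilobase, Cox4i1 was the highest of the 32 genes in both genotypes, at 6.39 in Cox10-/- and 6.55 in wild-type. Cox7a2l followed, at 5.59 in Cox10-/- and 6.04 in wild-type, and Cox8a, Cox6a1 and Cox6c lay between 5.12 and 5.58 in either genotype. Cox14 stood at 3.25 in Cox10-/- and 4.34 in wild-type, and Cmc2 at 1.13 in Cox10-/- and 2.22 in wild-type. Cox4i2 stood at 1.99 in Cox10-/- and 0.79 in wild-type, so that its level per kilobase was far under that of Cox4i1 in both genotypes. The lowest level was that of Cox16, at -0.42 in Cox10-/- and 0.12 in wild-type.

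Cox10 itself stood at 3.51, 3.69, 3.49 and 2.05 log2 CPM in Cox10-/- replicates 1 to 4, against 3.98, 3.42, 4.12 and 3.69 log2 CPM in wild-type. The ranges overlapped, and the difference of -0.62 ± 0.34 (SE; limma adjusted p = 0.246) did not pass. The labels do not name the deleted exon, and reads from the other exons count towards these values. In a list of 12 measured factors of haem A, copper and early assembly, none rose and 3 fell (25.0%, where 8.51% of all tested genes fell). Tmem177, which in human cells acts with Cox20 on newly made mt-Co2, stood at 1.59, 2.27, 1.95 and 1.56 log2 CPM in Cox10-/-, against 3.03, 3.14, 3.14 and 3.24 log2 CPM in wild-type. Its fall of -1.30 ± 0.27 (limma adjusted p = 0.00629) passed in all 8 fits without 1 library. Timm21, which in human cells joins Cox14 and Coa3 in the intermediate that holds mt-Co1, gave -0.79 ± 0.23 (adjusted p = 0.0328), but did not pass without Cox10-/- replicate 3 (0.0965), Cox10-/- replicate 4 (0.0647), wild-type replicate 1 (0.074), wild-type replicate 3 (0.0719) or wild-type replicate 4 (0.0853). Cox15, the enzyme that turns haem O into haem A, gave -0.58 ± 0.14 (adjusted p = 0.0169), and did not pass without wild-type replicate 4 (0.0551). With the means of replicates 1 and 2 and of replicates 3 and 4 as samples, the adjusted p was 0.0817 for Tmem177, 0.174 for Cox15 and 0.188 for Timm21.

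The 3 core subunits encoded in mitochondria did not pass the test, and their libraries divided in a way that did not follow genotype. mt-Co1 stood at 8.18, 8.21, 8.79 and 9.21 log2 CPM in Cox10-/- replicates 1 to 4, against 8.84, 9.15, 8.19 and 8.62 log2 CPM in wild-type. mt-Co2 stood at 3.02, 2.88, 6.95 and 5.41 log2 CPM in Cox10-/-, against 7.31, 7.35, 2.69 and 6.89 log2 CPM in wild-type, and mt-Co3 at 2.75, 2.05, 6.73 and 6.32 log2 CPM in Cox10-/-, against 7.26, 7.20, 2.24 and 6.82 log2 CPM in wild-type. Both were low in Cox10-/- replicates 1 and 2 and in wild-type replicate 3, which also had the lowest mt-Co1. Differences were -1.5 ± 1.05 for mt-Co2 and -1.42 ± 1.20 for mt-Co3, so that their intervals, -3.78 to 0.79 and -4.03 to 1.20, leave either direction possible.

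**Figure D4:**
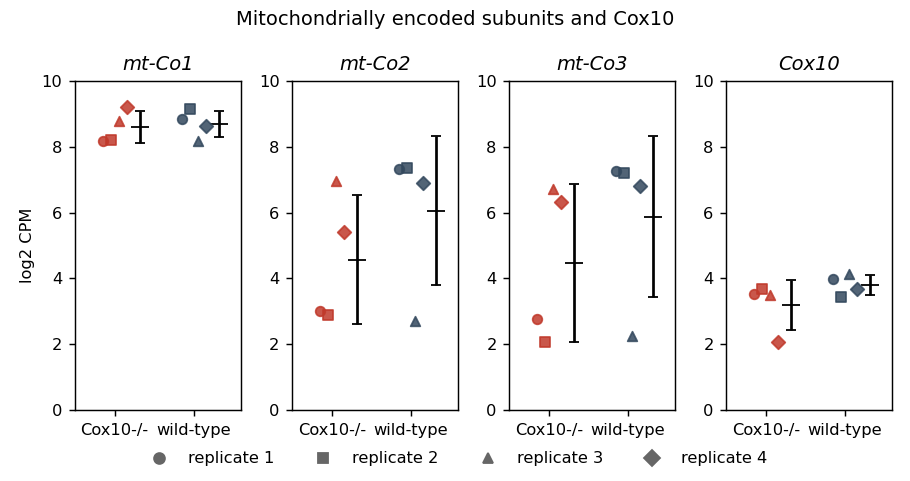
Log2 CPM of the mitochondrially encoded core subunits and of Cox10 in each of 4 Cox10-/- and 4 wild-type libraries; symbols give the replicate number and bars the mean ± SD. mt-Co2 and mt-Co3 fall into a low set of libraries (Cox10-/- replicates 1 and 2 and wild-type replicate 3, at or under 3.02) and a high set at 5.41 or above.

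Across genes, the closest libraries were replicates 1 and 2 in Cox10-/- (r = 0.9797) and replicates 3 and 4 in wild-type (r = 0.9806), and the next closest pair in wild-type was replicates 1 and 2 (r = 0.9748). Replicates 3 and 4 of Cox10-/- (r = 0.9703) were no closer than its replicates 2 and 3 (r = 0.9716). Differences were also taken within replicates 1 and 2 and within replicates 3 and 4. Cox10-/- was lower in both pairs for 23 of the 32 genes, higher in both for 2 and of opposite sign for 7. These counts, and that of the general subunits below, are descriptions with no share over all tested genes beside them. The 5 genes past the threshold had the same direction in both pairs, which has to be so for genes without overlap between the genotypes. Cox14 differed by -0.72 in replicates 1 and 2 and by -1.47 in replicates 3 and 4, Coa3 by -0.36 and -1.57, Cmc2 by -1.0 and -1.17, Lrpprc by -0.19 and -0.71, and Cox4i2 by 1.5 and 0.91, in the same order. Of the 12 general subunits, 9 were lower in both pairs; the others were Cox4i1, Cox6c and Cox7c, the last with 0.05 in replicates 1 and 2 and -0.995 in replicates 3 and 4. The median of the 32 genes was -0.27 in replicates 1 and 2, where that of all tested genes was 0.05, and -0.37 in replicates 3 and 4, where that of all tested genes was -0.15. With the means of the pairs as 2 samples per genotype none of the 5 passed, at adjusted p from 0.12 for Cox14 to 0.214 for Coa3. No gene of the 32 passed in that fit, in which 4.82% of all tested genes did. A fit on all 8 libraries with a term for the pairs called 5 of the 32 lower and 1, Cox4i2, higher. In the same fit 2028 of the 17801 tested genes were lower and 1810 higher.

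**Figure D5:**
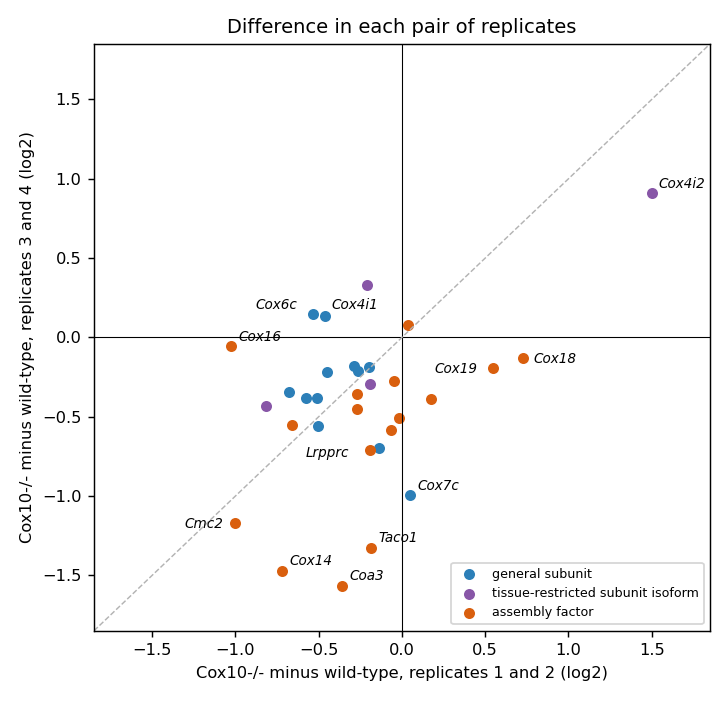
Difference between Cox10-/- and wild-type (log2 CPM) for each of the 32 genes in replicates 1 and 2 (horizontal) and in replicates 3 and 4 (vertical); the dashed line marks equal differences. A total of 23 genes lie below 0 on both axes, given as a description, and Coa3, Taco1 and Cox7c are lower mainly in replicates 3 and 4.

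Among 36 complex I subunits, a list set beside complex IV because both are needed for respiration, 5 fell and none rose (13.9% fell, where 8.51% of all tested genes did), and 35 lay below 0 with a median of -0.37. The difference between the lists was not tested. The sorted cells carried Pax7 in every library, at 7.15 to 7.52 log2 CPM in Cox10-/- and 8.45 to 8.77 log2 CPM in wild-type. Of 14 muscle stem cell markers 9 fell (64.3%, where 8.51% of all tested genes fell) and none rose (7.58% of all tested genes rose). Their sums were 2168 to 2376 CPM in Cox10-/- and 3608 to 4534 CPM in wild-type. Of 14 fibro-adipogenic markers 2 rose (14.3%, where 7.58% of all tested genes rose) and 1 fell (7.14%), with sums of 5349 to 10297 CPM in Cox10-/- and 5192 to 6652 CPM in wild-type. Of 14 haematopoietic markers 4 had a row and none was called, with sums of 25.9 to 46.3 CPM in Cox10-/- and 25.0 to 32.4 CPM in wild-type. The part of other cells in the values of the complex IV genes was not tested. Reads counted in genes numbered 1694990 to 4348297 in Cox10-/- libraries and 2149119 to 4652611 in wild-type libraries, with the fewest in Cox10-/- replicate 4 and wild-type replicate 2.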

How the data were processed

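Genome-wide RNA levels were measured by sequencing in 4 Cox10-/- and 4 wild-type libraries of sorted mouse muscle stem cells. The deposited values are log2 CPM, with every CPM of 1 or less listed as 0, as the values themselves show. Per the submitters' processing notes, Trim Galore, HISAT2, featureCounts, DESeq2 and the build mm9 were used; the sources used here give no roles or versions. Values of up to 20 reads were all whole multiples of a step in each library (tolerance 0.1 read), which gave depths of 1694990 to 4652611 reads in genes. Rows with no gene numbered 1054 of 18901 and were left out, and 21 symbols had been turned into dates. No gene had a mean under 0.5 log2 CPM, so genes below that are not in the table.

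Genes with a value above 0 in at least 4 of 8 libraries were tested with limma 3.58.1 (R 4.3.3; lmFit and eBayes with a trend) on genotype alone, with Benjamini-Hochberg adjustment over all 17801 genes and a threshold of 0.05. No pseudocount was added. Errors of fold changes are moderated SEs, and intervals are at 95%. The deposited values are not counts, so no count model was the main test. Values in each library are given for the genes past the threshold, those with an unadjusted p under 0.05, isoforms of 1 subunit and the pair with the highest mean level. Genes outside that rule were named after their values were seen. The members and lists were chosen with earlier results of these data known. Near copies were sought with BLAST 2.17.0 (at least 95% identity over 100 bases and 20% of the transcript). Alternatives were other filters, scalings and pseudocounts, terms or means for replicates, fewer libraries, and, chosen after seeing the data, limma-voom on the recovered reads, a correction for length and GC content, and a term for depth.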

Additional observations from a re-analysis of the deposited data

Results flagged for a closer look

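Of 64 groups of 4 libraries (32 genes in both genotypes), 5 held a library whose gap to the nearest other passed Dixon's 95% critical value for the gap over the group's range, which chance gives in about 1 group in 20. Ndufa4 stood at 3.63 log2 CPM in Cox10-/- replicate 4, where the other Cox10-/- libraries held 2.76 to 2.85. Cox8a stood at 4.70 log2 CPM in the same library, where the others held 4.39 to 4.43, and Cox8b at 1.24 log2 CPM (4 reads), where the others were listed at 0. Cox10-/- replicate 4 has the fewest reads of all libraries. Cox7b stood at 3.87 log2 CPM in Cox10-/- replicate 1, where the others held 4.09 to 4.11. Coa5 stood at 5.53 log2 CPM in wild-type replicate 2, the shallowest wild-type library, where the others held 5.91 to 5.97.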

How the results depend on the processing

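The count of 4 complex IV genes that fell was 0 with means of replicates 1 and 2 and of 3 and 4. It was 8 without the 2 shallowest libraries, with Cox8b among them, listed at 0 in the Cox10-/- libraries left. It was 1 to 6 when 1 library was left out. The count of 1 called higher was 0 with those means, with a mean of 1 log2 CPM or more required (which removes Cox4i2), without the 2 shallowest libraries and with limma-voom on recovered reads, and 0 to 1 when 1 library was left out. Over the whole table, 2863 genes were called, 858 with means of replicates, and 1840 (without Cox10-/- replicate 3) to 2907 when 1 library was left out. Without the 2 shallowest libraries, log2 fold changes of 2 uncalled genes changed sign, Higd1a to 0.0033 and Cmc1 to -0.06. When 1 library was left out, Cmc1 ranged from -0.07 to 0.21, Cox6b2 from -0.18 to 0.19 and Higd1a from -0.20 to 0.054. The cause was not tested. Of the log2 fold changes of single genes recomputed under all alternatives, 561 kept direction and side of the threshold, 26 lost a call, 11 gained one and 7 changed sign. Only 5 genes had a call to lose, so the 561 are mainly from genes that were not called and stayed so.

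Same-numbered libraries of the genotypes had correlations of deviations of 0.0453, 0.137, 0.11 and 0.13, so the numbers were not taken to pair them. Among replicates 1 and 2 of both genotypes these correlations ran from 0.0308 to 0.165, and among replicates 3 and 4 from -0.0238 to 0.152. Between replicates 1 or 2 of 1 genotype and 3 or 4 of the other they ran from -0.215 to 0.0252. The cause was not tested. With a replicate block 3 of the genes were called lower and 1 higher, Coa3 had an adjusted p of 0.0632, and 3201 genes of the table were called. The planned count test by quasi-likelihood was not run, because the deposited values are logarithms. Depth limits the low genes: Cox4i2, Cox8b, Cox6b2, Cox16, Cmc2, Coa4, Pet100 and Taco1 had 20 reads or fewer in most libraries.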

Other observations

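The low level of mt-Co2 and mt-Co3 in Cox10-/- replicates 1 and 2 and in wild-type replicate 3 was shared by other genes encoded in mitochondria, chosen after their values were seen. mt-Atp6 stood at 3.54, 2.69, 7.05 and 6.36 log2 CPM in Cox10-/- replicates 1 to 4, against 7.44, 7.46, 2.69 and 7.07 log2 CPM in wild-type replicates 1 to 4. mt-Nd4l stood at 0.89, 0.46, 5.17 and 2.70 log2 CPM in Cox10-/-, against 5.70, 5.61, 0.59 and 5.37 log2 CPM in wild-type, and mt-Nd3 at 0, 0.46, 4.43 and 1.24 log2 CPM in Cox10-/-, against 5.27, 4.80, 0 and 4.95 log2 CPM in wild-type. mt-Atp8 was lowest in the same 3 libraries, at 1.59, 0, 4.04 and 2.56 log2 CPM in Cox10-/-, against 4.93, 4.68, 0 and 4.37 log2 CPM in wild-type. These genes lie next to mt-Co2 and mt-Co3 in mitochondrial DNA. mt-Nd4, which follows mt-Nd4l, was lower there by less, at 7.09, 7.20, 8.04 and 8.04 log2 CPM in Cox10-/-, against 8.31, 8.28, 6.95 and 8.04 log2 CPM in wild-type. The same 3 libraries were also the lowest for mt-Nd1 and mt-Cytb, which lie elsewhere, but with a narrower range. mt-Nd1 stood at 7.23, 7.34, 7.57 and 8.30 log2 CPM in Cox10-/-, against 7.61, 7.92, 7.27 and 7.42 log2 CPM in wild-type, and mt-Cytb at 7.95, 8.0, 8.29 and 8.91 log2 CPM in Cox10-/-, against 8.12, 8.50, 7.97 and 8.07 log2 CPM in wild-type.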
